A study of Homo sapiens with 12 samples.

Results

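The HOX genes, the homeobox transcription factor genes of the HOXA, HOXB, HOXC and HOXD clusters, were read out in HCT116 and SW480 cells, established lines from human colon tumours, each as parental cells and after stable transfection with a CD44 isoform. Members were taken by symbol (HOX, a cluster letter and a number), which gave 39 genes among 62426 in the count table: 11 in HOXA, 10 in HOXB, 9 in HOXC and 9 in HOXD. Poly(A) RNA was sequenced from 12 libraries in 6 groups of 2, named HCT116 parental, HCT116 CD44s-OE, HCT116 CD44v6-OE, SW480 parental, SW480 CD44s-OE and SW480 CD44v6-OE. CD44s-OE and CD44v6-OE denote cells that received a plasmid for the standard CD44 isoform or for the variant carrying exon v6 and were kept under Geneticin. The parental cells had no empty vector, so transfection and drug selection differ between each OE group and its control along with the isoform, and cannot be told apart from it. The headers of the count table call the OE libraries pools, and no source used here says whether the 2 libraries of a group came from separate cultures, so p-values measure the spread between these libraries, which may be technical.

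Library totals ran from 43102156 to 52811889 counts, in which each read of a pair was apparently counted. Total CD44 RNA did not pass the test in any comparison within a line (edgeR quasi-likelihood test, adjusted p from 0.274 to 0.959), at 509 to 552 CPM (counts scaled to a common library size) over the 6 HCT116 libraries, and, in SW480, at 165 to 172 CPM in parental, 187 to 203 after CD44s and 135 to 147 after CD44v6 transfection. These gene counts sum all isoforms and do not check the OE labels; in SW480 the libraries labelled CD44v6-OE both lay below both parental ones. The group names below are therefore those of the labels.

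HOX proteins bind DNA through a shared homeodomain, often together with PBX and MEIS partners, and give cells their position along the body axis. Within a cluster, low-numbered genes (anterior) sit at one end and act towards the head, and high-numbered genes (posterior) sit at the other end and act towards the tail. The adult colon keeps such a code, set up in the hindgut together with the intestinal factor CDX2, and colon cancers often show altered levels of single HOX genes. Polycomb proteins hold unused HOX genes silent, and retinoic acid induces anterior ones during development.

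The HOX genes whose differences within a line passed both the fold and the p threshold were HOXD8 and HOXD4, and the antisense transcript HOXD-AS2, which starts between them, passed in the same comparison. The 250 bases before their RefSeq start sites (GRCh38.p14) are shown to compare the starts of these 3 transcripts, at chr2:176129455-176129704 (plus strand), chr2:176151300-176151549 (plus strand) and chr2:176137099-176137348 (minus strand), respectively. Capitals mark TAAT or ATTA, the core that most homeodomains bind and its reverse complement; overlapping matches are counted separately.
HOXD8: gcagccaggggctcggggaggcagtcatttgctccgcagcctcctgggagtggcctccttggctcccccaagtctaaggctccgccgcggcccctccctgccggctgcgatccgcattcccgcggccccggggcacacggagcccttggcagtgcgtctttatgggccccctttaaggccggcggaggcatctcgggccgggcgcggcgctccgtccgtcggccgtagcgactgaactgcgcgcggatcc
HOXD4: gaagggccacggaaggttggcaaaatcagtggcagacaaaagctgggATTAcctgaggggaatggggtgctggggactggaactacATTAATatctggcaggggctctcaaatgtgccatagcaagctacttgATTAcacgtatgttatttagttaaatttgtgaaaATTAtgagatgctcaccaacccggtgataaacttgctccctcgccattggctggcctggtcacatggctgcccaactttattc
HOXD-AS2: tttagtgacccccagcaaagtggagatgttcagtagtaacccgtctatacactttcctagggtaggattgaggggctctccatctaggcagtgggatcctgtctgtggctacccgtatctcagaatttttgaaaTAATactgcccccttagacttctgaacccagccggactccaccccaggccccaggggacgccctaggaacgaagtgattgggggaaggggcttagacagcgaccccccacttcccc

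The stretch before HOXD8 was 72.4% G or C with 28 CpG, and held no TAAT or ATTA. The stretch before HOXD4 was 47.6% G or C with 4 CpG and held 5 matches, a number that 6.16% of the 35116 promoter entries reached. Before HOXD-AS2, 54.8% of bases were G or C, with 6 CpG and 1 match. At least 1 match was present in 47.4% of all entries of the same length and in 20 of the 27 entries for HOX genes, which cover 20 of the 39 genes. The E-box CACCTG or its reverse complement CAGGTG, the site of the ZEB repressors, was in none of the 3 stretches and in 17.5% of all entries. These are matches of letters in a window and do not show binding.

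Levels are given as RPKM, counts scaled to exon length and to library size with TMM factors over all 12 libraries, which allows genes to be compared. A gene was taken as expressed in a group at 1 RPKM or more in both libraries. By this measure, 20 HOX genes were expressed in each of the 3 HCT116 groups, and 25 in SW480 parental, 28 in SW480 CD44s-OE and 26 in SW480 CD44v6-OE. The same 18 genes were expressed in all 6 groups: HOXA5, HOXA6, HOXA7, HOXA9, HOXA10 and HOXA11, HOXB3 to HOXB9 and HOXB13, and HOXC6, HOXC9, HOXC10 and HOXC13. HOXA3, HOXA4, HOXB2, HOXC8 and HOXD9 were among the genes expressed in all 3 SW480 groups and in no HCT116 group. No gene showed the opposite pattern, and 10 genes, among them HOXB1, HOXA13, HOXC12 and 5 HOXD genes, were expressed in no group.

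The state of expression did not differ among the HCT116 groups for any gene, whereas 5 genes crossed 1 RPKM between the SW480 groups: HOXC4, HOXC11, HOXD8, HOXD10 and HOXD13. HOXD13, for example, was at 0.941 and 0.909 RPKM in the SW480 parental libraries and at 1.15 to 1.44 in the other 4, while HOXD8 spanned 0.633 to 2.29 RPKM over the 6. By position, HCT116 parental expressed 1 of 8 genes of paralog groups 1 to 3, 11 of 15 of groups 4 to 8 and 8 of 16 of groups 9 to 13. SW480 parental expressed 4, 12 and 9 of them.

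**Figure D1:**
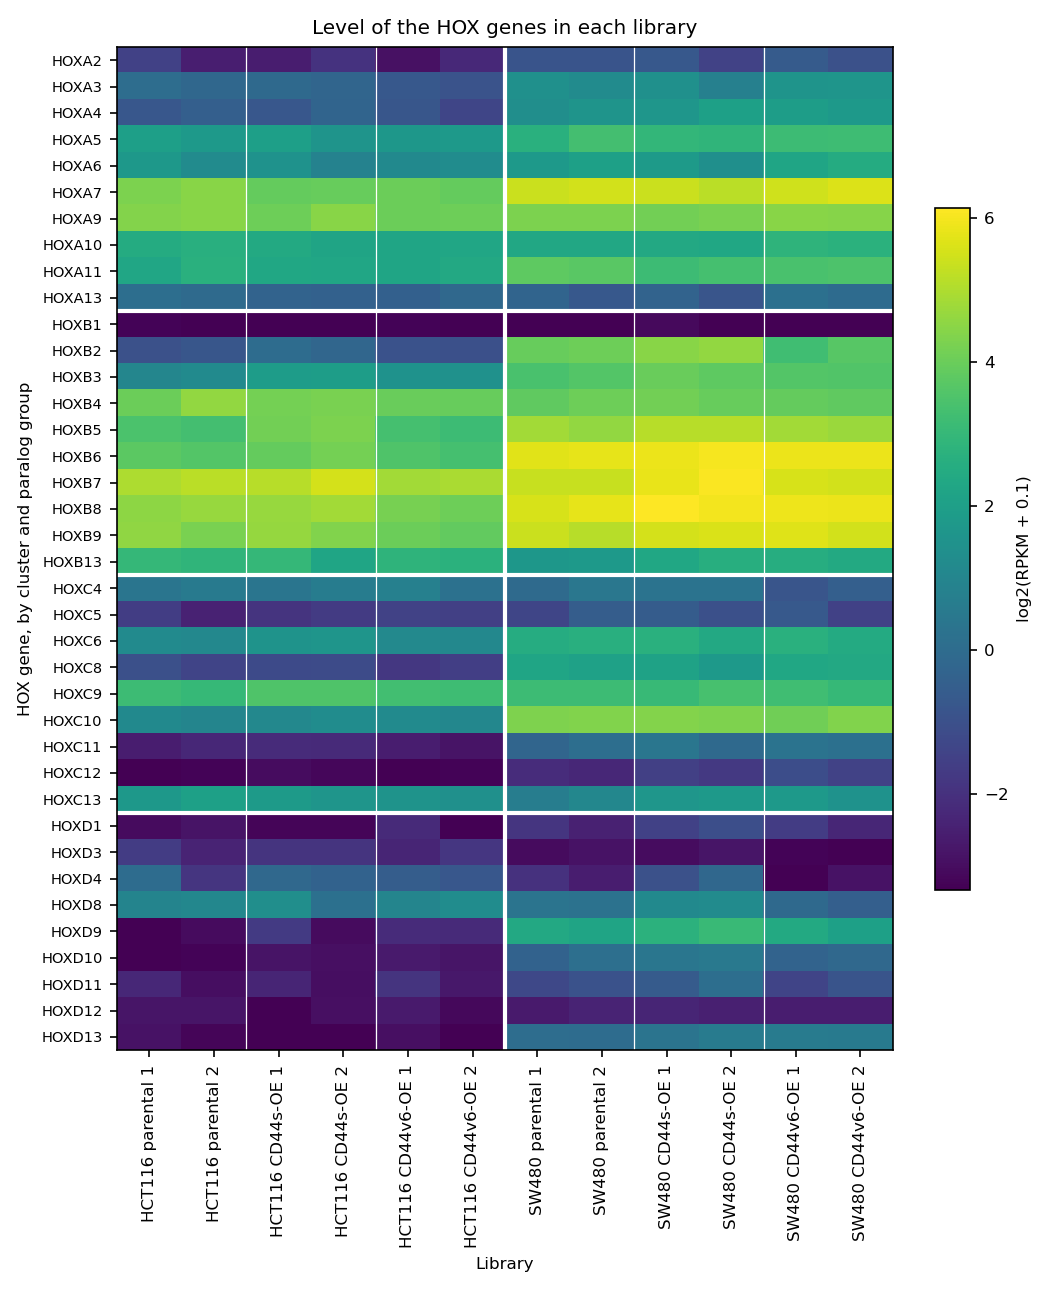
Level of the HOX genes (rows, ordered by cluster and paralog group) in each library (columns), as log2(RPKM + 0.1) in colour; white lines separate clusters and groups. The HOXB rows from HOXB4 to HOXB9 are bright in all 12 libraries, HOXD is dark in HCT116, and HOXB2, HOXC8, HOXC10 and HOXD9 are brighter in SW480.

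The HOXB cluster held most HOX RNA in both lines. Summed over its genes, it made up 60.2% to 67.3% of all HOX RPKM in the HCT116 libraries and 61.2% to 69.2% in the SW480 libraries. HOXA gave 22.7% to 29.4% in HCT116 and 18.4% to 26.6% in SW480. HOXC gave 8.08% to 10.4% and 9.14% to 10.6%, and HOXD 0.836% to 1.84% and 1.70% to 3.23%. The shares of all 4 clusters thus overlapped between the lines, while the total over the 39 genes was 176 to 238 RPKM in HCT116 and 405 to 487 RPKM in SW480 without overlap. Same-strand exons of neighbouring genes overlap for some members, where reads on shared bases are not assigned and the level is uncertain: HOXC5 (59.9% of its exonic bases), HOXA4 (31.3%), HOXD11 (21.4%) and HOXD10 (18.2%) were the most affected.

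The comparison of the parental lines asks how the HOX code of the untransfected cells differed. Of 38 tested genes (HOXB1 did not pass the count filter), 13 were called higher in SW480 and 2 lower, where a call needs an absolute log2 fold change over 1.5 and an adjusted p under 0.1. Over all 19567 tested genes, 29.0% were called, 16.1% higher and 12.9% lower. HOXC12, HOXD10 and HOXD13 passed the count filter only through SW480 libraries, and HOXD3 only through HCT116 libraries. Their calls are descriptions and no support for these counts. At an adjusted p under 0.1 and any fold, 23 HOX genes were higher and 6 lower, against 60.9% of all genes in either direction, and DESeq2 and limma called 17 and 10 HOX genes. The median log2 difference was 1.32 over the HOX genes and 0.04 over all genes. Both SW480 parental libraries lay above both HCT116 parental ones for 27 HOX genes and below for 8, while 38.7% of all tested genes lay above and 37.2% below.

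In HOXA, the highest gene of HCT116 parental was HOXA9, a posterior gene known from leukaemia, at 20.7 and 21.7 RPKM, against 19.1 and 19.2 in SW480 parental (log2 difference -0.15 ± 0.15 SE, adjusted p = 0.430). HOXA7 was the highest in SW480 parental, at 42.0 and 45.0 RPKM against 19.2 and 21.7 in HCT116 parental, and was higher by 1.09 ± 0.14 on the log2 scale (adjusted p = 1.98e-05). The interval of 2 SE around the HOXA9 difference, -0.44 to 0.15, includes 0, and that around the HOXA7 difference, 0.81 to 1.38, does not. HOXA4 was called, at 2.46 and 2.87 against 0.494 and 0.632 RPKM (log2 difference 2.24 ± 0.33, adjusted p = 6.12e-05). HOXA3, HOXA5, HOXA11 and HOXA2 also passed the p threshold with differences of 1.12 to 1.49, and no HOXA gene passed it in the other direction.

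In HOXB, HOXB7 was the highest gene of HCT116 parental, at 31.5 and 35.6 RPKM, and was at 40.6 in both SW480 parental libraries (log2 difference 0.27 ± 0.16, adjusted p = 0.163). HOXB6 was the highest in SW480 parental, at 51.8 and 55.5 RPKM against 13.4 and 12.0 (log2 difference 2.08 ± 0.15, adjusted p = 5.43e-08). HOXB2, which patterns the hindbrain, differed most in this cluster, at 15.3 and 16.3 RPKM in SW480 parental against 0.414 and 0.476 (log2 difference 5.15 ± 0.23, adjusted p = 6.62e-10). Its neighbour HOXB3 was at 10.6 and 12.0 against 1.94 and 2.19 RPKM (log2 difference 2.45 ± 0.15). The difference was thus smaller at HOXB3 than at HOXB2, and it had the other sign at HOXB4, a gene known from blood stem cells, which was at 14.1 and 16.6 RPKM in SW480 against 16.2 and 24.4 (-0.40 ± 0.19, adjusted p = 0.0867). HOXB13, the most posterior gene of the cluster and a known marker of prostate and distal gut, was lower in SW480, at 3.15 and 3.38 against 7.82 and 7.26 RPKM (-1.21 ± 0.23, adjusted p = 0.00047).

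In HOXC, HOXC9 was the highest gene of HCT116 parental, at 8.90 and 8.05 RPKM, and was at 8.81 and 8.93 in SW480 parental (log2 difference 0.07 ± 0.18, adjusted p = 0.776). HOXC10, known from the lumbar spinal cord and hindlimb, was the highest in SW480 parental, at 20.0 and 20.4 RPKM against 2.12 and 1.85 (log2 difference 3.35 ± 0.18, adjusted p = 3.11e-09). HOXC8, a thoracic gene, was at 4.67 and 4.16 against 0.400 and 0.283 RPKM (3.69 ± 0.28, adjusted p = 9.34e-08). Both neighbours of HOXC9 thus had differences over 3 on the log2 scale, with all SW480 parental values above all HCT116 parental ones, while the HOXC9 values of the lines overlapped. HOXC11 was also called (3.28 ± 0.41), and HOXC12 had 18 read pairs against 1, a 20.9-fold ratio whose 95% exact interval for counting error starts at 3.30. HOXC13, needed in hair and nail, was lower in SW480, at 1.501 and 1.98 against 3.17 and 4.07 RPKM (-1.05 ± 0.24, adjusted p = 0.00194).

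In HOXD, HOXD8 was the only gene expressed in HCT116 parental, at 1.84 and 1.96 RPKM, and was at 1.15 and 1.09 in SW480 parental (log2 difference -0.76 ± 0.34, adjusted p = 0.0772). HOXD9, a posterior gene of the limb and lumbar region, was the highest in SW480 parental, at 5.13 and 4.47 RPKM, with 400 read pairs in its 2 libraries against 1 in HCT116 parental, a 464-fold ratio with an interval starting at 82.8. HOXD10 had 96 read pairs against 1, a 111-fold ratio with an interval starting at 19.5. HOXD13, the gene of digits and hindgut end, was called higher as well (0.941 and 0.909 against 0.0392 and 0.00808 RPKM, log2 difference 5.22 ± 0.66). The 2 genes called lower in SW480 were the anterior HOXD3 (-2.31 ± 0.74, adjusted p = 0.0168) and HOXD4 (-2.29 ± 0.82, adjusted p = 0.0300), both under 1 RPKM in all 4 libraries. HOXD4 was at 0.918 RPKM in HCT116 parental 1 and 0.172 in HCT116 parental 2, and lost its call without the former or without SW480 parental 2 (adjusted p up to 0.596). HOXD3 lost its call without HCT116 parental 1 and HOXD11, called higher in SW480 (2.42 ± 0.73), without HCT116 parental 2.

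**Figure D2:**
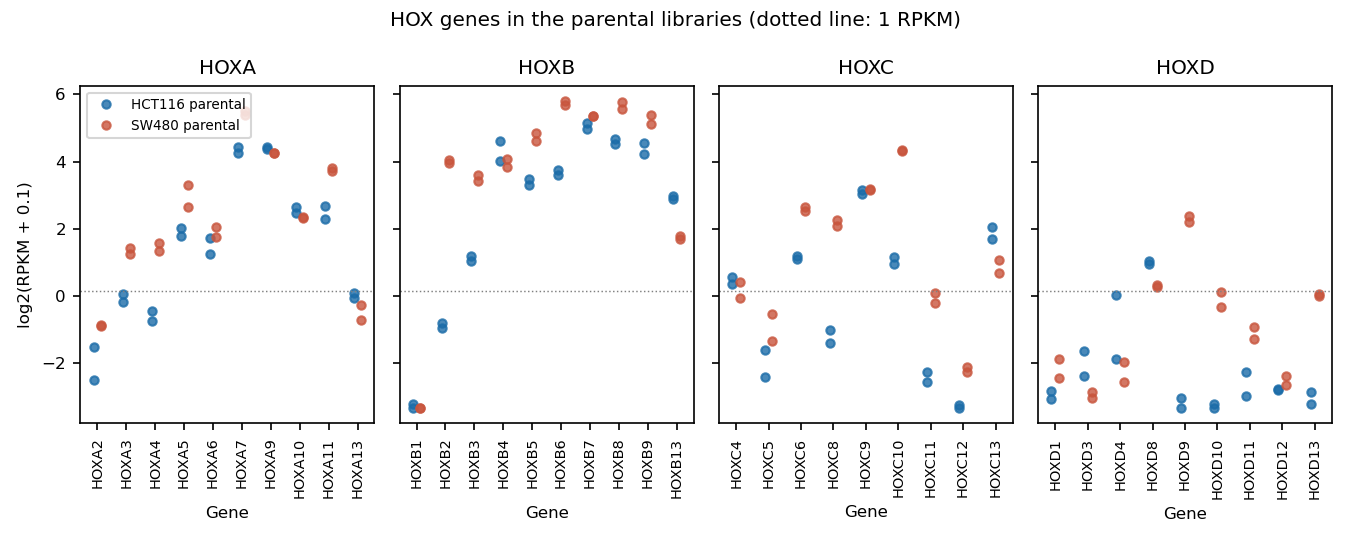
Level of the HOX genes in the 2 HCT116 parental (blue) and 2 SW480 parental (red) libraries, as log2(RPKM + 0.1), by cluster and paralog group; each dot is 1 library and the dotted line marks 1 RPKM. HOXB2, HOXC8, HOXC10, HOXD9, HOXD10 and HOXD13 lie well apart between the lines, and HOXA9, HOXB7 and HOXC9 lie close together.

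In HCT116, the question was whether either isoform changed this code. Against parental, 33 HOX genes were tested in CD44s-OE and 0 were called, where 3.09% of all 17335 genes were (2.71% higher, 0.387% lower). Both CD44s-OE libraries lay above both parental ones for 8 HOX genes and below for 3, as they did for 27.4% and 24.1% of all genes. By cluster, 10 of 11 HOXA genes had a log2 difference below 0 (median -0.21). Above 0 lay 7 of 9 tested HOXB genes (median 0.28), 7 of 8 in HOXC (0.19) and 3 of 5 in HOXD (0.10). The median over all genes was 0.04. At an unadjusted p under 0.05 there were 8 HOX genes (7 higher, 1 lower), a level that 25.2% of all genes reached, and DESeq2 and limma each called 0. At the adjusted p alone, which 14.2% of all genes passed, HOXB3 and HOXB5 were higher and HOXA7 was lower; members and listed genes that passed only the adjusted p are named here and below after their values were seen. The largest fitted difference was that of HOXD9, with 11 read pairs against 1 (ratio 11.2, 95% exact counting interval from 1.62, adjusted p = 0.168), and its level was at most 0.204 RPKM in any HCT116 library. HOXD9 passed the count filter in HCT116 only through OE libraries, so it adds no support to the counts above or to the HOXD median.

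HOXB5, which acts in the nerve cells of the gut wall, was at 11.0 and 9.84 RPKM in the parental libraries, 17.6 and 19.3 in the CD44s-OE ones, and 9.99 and 8.90 after CD44v6 transfection. HOXB3 was at 1.94 and 2.19, 3.66 and 3.73, and 2.74 and 2.64 RPKM. Both CD44s-OE libraries thus lay above the other 4 for both genes. Against parental, HOXB5 was higher by 0.82 ± 0.16 on the log2 scale (adjusted p = 0.0179) and HOXB3 by 0.84 ± 0.16 (adjusted p = 0.0159). Without HCT116 parental 2 neither passed, and without HCT116 parental 1 HOXB3 did not (adjusted p up to 0.190 and 0.116). HOXA7 was at 14.99 and 15.3 RPKM in CD44s-OE against 19.2 and 21.7 (-0.43 ± 0.14, adjusted p = 0.0948), and at 15.99 and 14.9 in CD44v6-OE. Its p passed in 2 of the 6 fits that left out a library.

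CD44v6-OE against parental gave 0 called HOX genes of 33, with 0.779% of all genes called (0.738% higher, 0.0404% lower), and 0 at the adjusted p alone, with 1.53%. Without overlap, 4 HOX genes were higher in CD44v6-OE and 15 lower, where 27.1% and 24.9% of all genes were. HOXD9, which passed the count filter only through OE libraries, is among the 4 and adds no support to the counts of this comparison. An unadjusted p under 0.05 was found for 7 HOX genes (2 higher, 5 lower) and 11.2% of all genes, and DESeq2 and limma called 0. All 11 HOXA genes and 8 of 9 tested HOXB genes had a log2 difference below 0, with medians of -0.32 and -0.18 beside a median of 0.00 over all genes. CD44s-OE against CD44v6-OE likewise gave 0 called of 33 (0.288% of all genes, 0.127% higher and 0.162% lower), 9 genes at an unadjusted p under 0.05, all higher in CD44s-OE, where 10.5% of all genes stood, and 0 by DESeq2 and limma. At the adjusted p alone, which 0.813% of all genes passed, 1 gene did: in CD44s-OE, HOXB5 exceeded its CD44v6-OE level by 0.97 ± 0.16 log2 units (adjusted p = 0.0409), and it no longer passed without any one of the 2 parental and 2 CD44v6-OE libraries (adjusted p up to 0.773). Without overlap, 17 HOX genes were higher and 1 lower in the CD44s-OE libraries, where 20.3% and 21.0% of all genes were. The former held 8 of the 9 tested HOXB genes, whose median log2 difference was 0.58; the exception, HOXB13, was at 7.84 and 4.61 against 6.98 and 6.4995 RPKM.

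In SW480, 37 HOX genes were tested, and CD44s-OE against parental gave 0 calls, where 2.03% of all 17539 genes were called (1.39% higher, 0.639% lower). An unadjusted p under 0.05 was found for 12 HOX genes (11 higher, 1 lower) and 15.9% of all genes, and DESeq2 and limma called 0. At the adjusted p alone, which 4.72% of all genes passed, HOXB7 and HOXB13 were higher. HOXB7 was at 40.6 in both parental libraries, 56.3 and 67.6 in CD44s-OE and 46.9 and 45.3 RPKM in CD44v6-OE (against parental 0.59 ± 0.15, adjusted p = 0.0713). HOXB13 was at 3.15 and 3.38, 4.91 and 5.94, and 5.92 and 5.23 RPKM (0.71 ± 0.20, adjusted p = 0.0865). HOXB7 passed in 2 and HOXB13 in 1 of the 6 fits that left out a library, with adjusted p up to 0.452 and 0.528.

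All 9 tested HOXB genes and all 8 tested HOXD genes had a log2 difference above 0 in SW480 CD44s-OE against parental, with medians of 0.36 and 0.80, while 10 of 11 HOXA genes lay below 0, with a median of -0.18. In HOXD 7 and in HOXB 8 genes lay higher in both CD44s-OE libraries than in both parental ones. Over the 4 clusters this held for 18 HOX genes, against 23.4% of all genes, and 2 lay lower, against 19.0%. HOXD4 is counted among the HOXD genes here. It passed the count filter in SW480 only through the CD44s-OE libraries, so it adds no support to these counts or to the HOXD median. Leaving out each library in turn kept the sign of the medians (0.32 to 0.45 in HOXB, 0.54 to 0.89 in HOXD and -0.44 to -0.05 in HOXA), and the signs were as counted with RLE size factors and with DESeq2. CD44v6-OE against parental gave 0 calls of 37 (0.416% of all genes, 0.405% higher and 0.0114% lower), 0 at the adjusted p alone (0.57%), 7 at an unadjusted p under 0.05 (4 higher, 3 lower, against 8.71% of all genes) and 0 by DESeq2 and limma. Without overlap, 16 HOX genes were higher and 5 lower, where 22.1% and 16.2% of all genes were, and 6 of those 16 were HOXA genes.

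**Figure D3:**
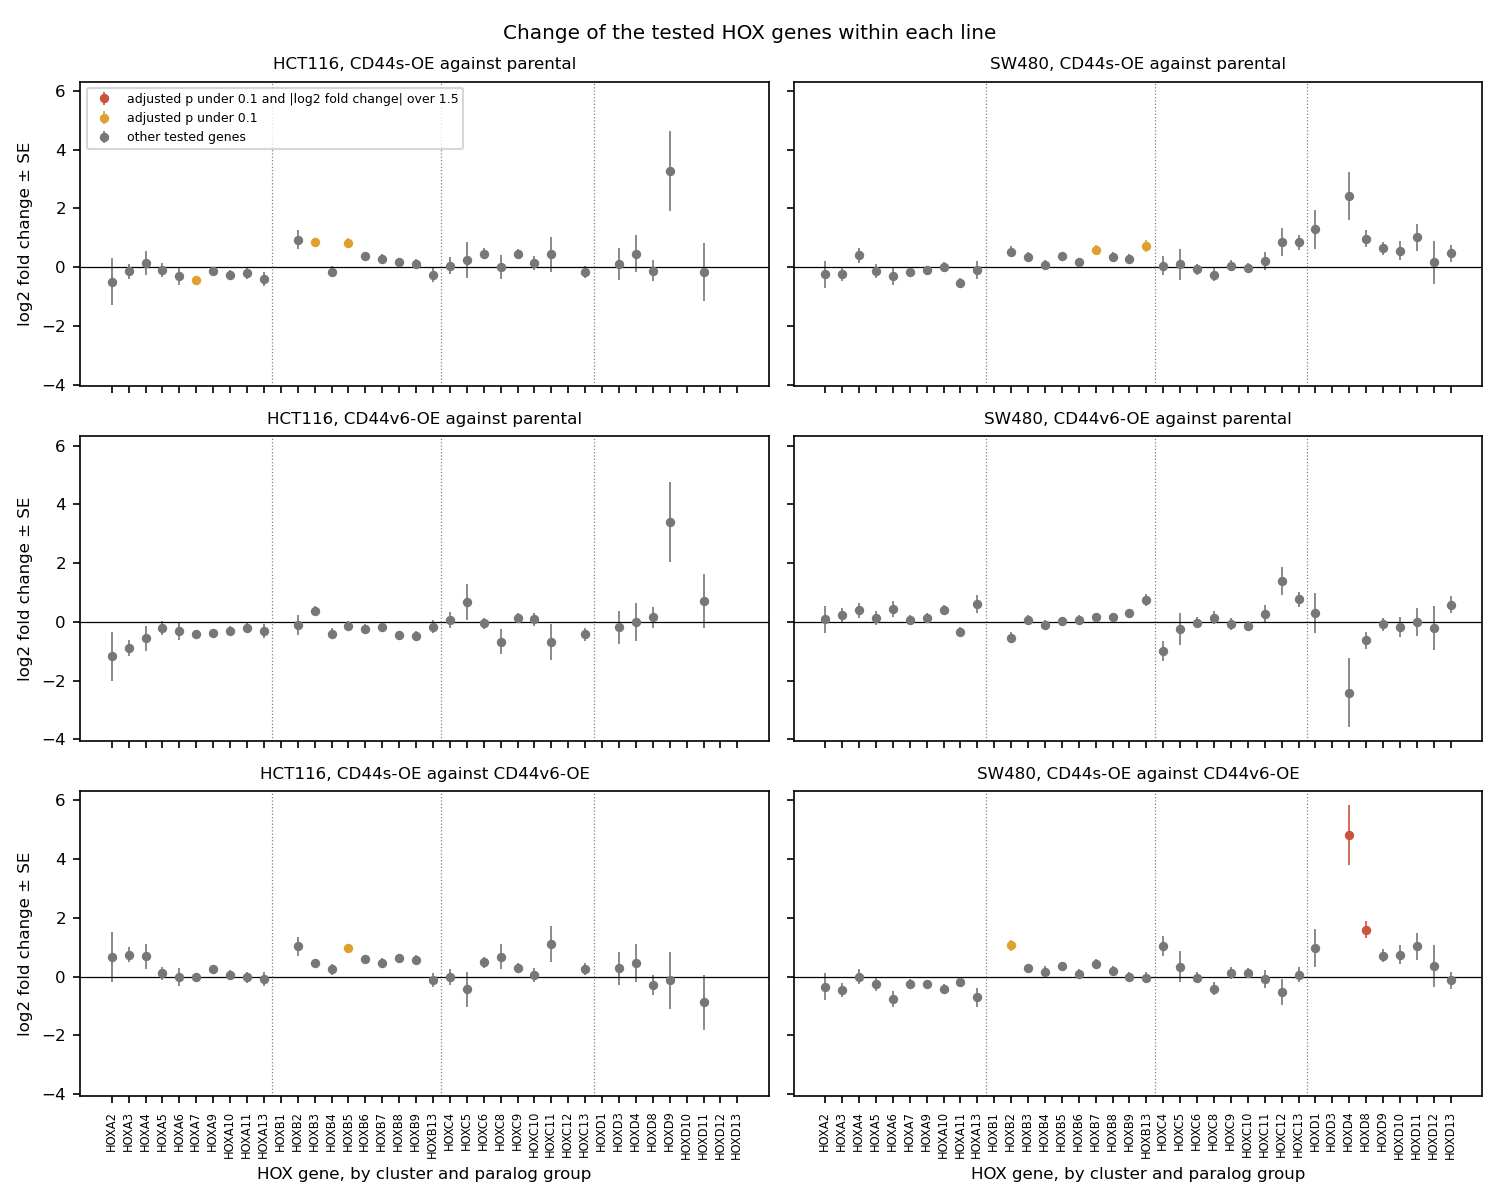
Log2 fold change with its standard error for the tested HOX genes, by cluster and paralog group (dotted lines separate HOXA, HOXB, HOXC and HOXD), in HCT116 (left) and SW480 (right) for the 3 comparisons within each line. HOXD8 and HOXD4 (red) are called in SW480 CD44s-OE against CD44v6-OE; the genes past the adjusted p alone (orange) are HOXA7, HOXB2, HOXB3, HOXB5, HOXB7 and HOXB13.

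CD44s-OE against CD44v6-OE in SW480 was the comparison within a line in which HOX genes were called, 2 of 37 and both higher in CD44s-OE. Over all 17539 genes 1.02% were called, 0.291% higher and 0.73% lower. DESeq2 called the same number and limma 0, and 12 HOX genes (9 higher, 3 lower) and 10.8% of all genes had an unadjusted p under 0.05. One of the 2, HOXD4, passed the count filter in SW480 only through the CD44s-OE libraries, where it was high, so its call is a description and no support for the count.

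HOXD8 (chr2:176994422-176997423 in hg19, plus strand) was at 2.17 and 2.29 RPKM in CD44s-OE, 0.846 and 0.633 in CD44v6-OE and 1.15 and 1.09 in the parental libraries. The 3 groups did not overlap, with parental in between. The log2 difference between the OE groups was 1.60 ± 0.28 (adjusted p = 0.0187). Against parental, CD44s-OE was 0.97 ± 0.28 higher (adjusted p = 0.101) and CD44v6-OE was at -0.63 ± 0.28 (adjusted p = 0.567). In HCT116, HOXD8 ranged from 1.02 to 2.44 RPKM over the 6 libraries, and those extremes were the 2 CD44s-OE libraries.

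HOXD4 (chr2:177016278-177017954 in hg19, plus strand) was at 0.407 and 0.8002 RPKM in SW480 CD44s-OE, 0 and 0.0385 in CD44v6-OE and 0.156 and 0.0703 in the parental libraries. It was thus under 1 RPKM in every library, and the 3 groups again did not overlap. The counts were 22 and 46 against 0 and 2, or 34 read pairs against 1, a 31.7-fold ratio whose 95% exact interval for counting error starts at 5.32. The fitted log2 difference was 4.82 ± 1.03 (adjusted p = 0.0487). HOXD3, next to HOXD4, had at most 8 counts in any SW480 library and was not tested there. Neither HOXD8 nor HOXD4 shares exonic bases with another gene on its strand.

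HOXD8 and HOXD4 each kept an adjusted p under 0.1 without either parental library and lost it without any one of the 4 OE libraries (adjusted p up to 0.305 and 0.602), where 1 library of a group remained and was assumed to vary like the others. HOXB2 passed the adjusted p alone, at which 2.12% of all genes stood. It was at 21.8 and 24.3 RPKM in CD44s-OE, 9.23 and 12.9 in CD44v6-OE and 15.3 and 16.3 in the parental libraries (CD44s-OE against CD44v6-OE 1.06 ± 0.19, adjusted p = 0.0207). It shared with HOXD8 the order of the groups, CD44v6-OE below parental and parental below CD44s-OE, and was lost without SW480 CD44s-OE 1, CD44s-OE 2 or CD44v6-OE 1 (adjusted p up to 0.329).

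By cluster, 7 of 8 tested HOXD genes and 7 of 9 HOXB genes were higher in both SW480 CD44s-OE libraries than in both CD44v6-OE libraries, as were 22.3% of all genes, and 8 of 11 HOXA genes were lower in this way, as were 24.5% of all genes. The median log2 differences were 0.86 in HOXD, 0.20 in HOXB, 0.07 in HOXC and -0.26 in HOXA, beside 0.01 over all genes. HOXD9 contributed 6.75 and 8.39 against 5.26 and 4.06 RPKM (0.71, adjusted p = 0.210). HOXD13 was the tested HOXD gene without this order, at 1.15 and 1.44 against 1.44 and 1.40 RPKM. HOXD4, which passed the count filter only through the CD44s-OE libraries, is counted here and adds no support to the HOXD count or median.

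**Figure D4:**
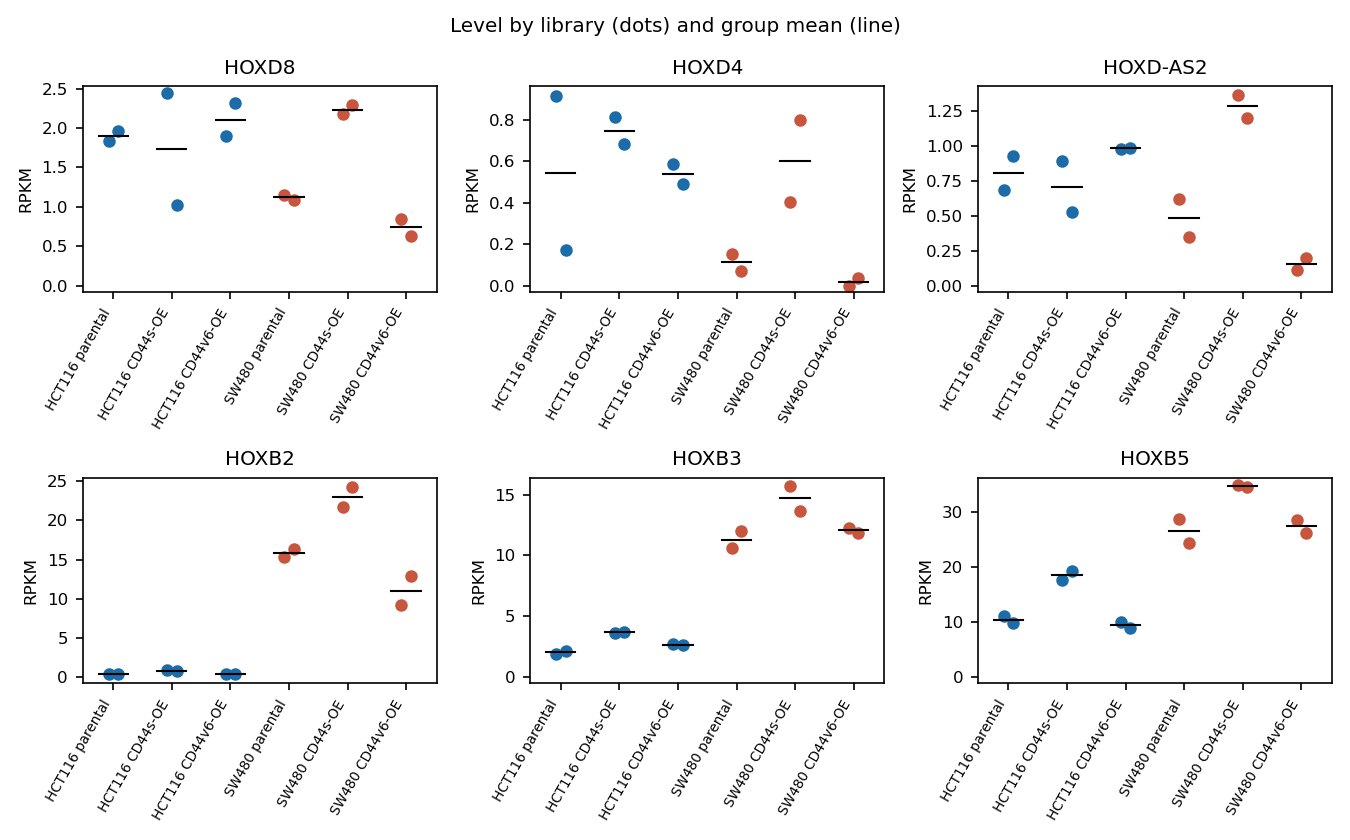
RPKM by library (dots, HCT116 blue and SW480 red) and group mean (line) for HOXD8, HOXD4, the antisense transcript HOXD-AS2, HOXB2, HOXB3 and HOXB5. In SW480, HOXD8, HOXD4, HOXD-AS2 and HOXB2 are high in both CD44s-OE and low in both CD44v6-OE libraries; in HCT116, HOXB3 and HOXB5 are high in both CD44s-OE libraries.

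Whether a change differed between the lines was tested as a difference of log2 differences over all 12 libraries. No HOX gene of 38 passed an adjusted p under 0.1 in edgeR for CD44s-OE against parental (3.92% of all genes did), CD44v6-OE against parental (0.409%) or CD44s-OE against CD44v6-OE (0.491%). At an unadjusted p under 0.05 there were 7, 13 and 12 HOX genes, against 16.1%, 8.86% and 8.41% of all genes. DESeq2 called 3 (HOXC13, HOXB13 and HOXD13), 4 (HOXC13, HOXD9, HOXA3 and HOXA10) and 2 (HOXD8 and HOXA3) at the same threshold, and limma 0 in each. For HOXD8, the SW480 difference between CD44s-OE and CD44v6-OE exceeded that of HCT116 by 1.88 ± 0.49 (adjusted p = 0.178), and for HOXD4 by 4.35 ± 1.31 (adjusted p = 0.292). The 9 HOXD genes all had such a difference above 0 (median 1.90) and the 11 HOXA genes all below 0 (median -0.51), beside a median of -0.02 over all genes; 7 of the HOXD genes had 10 or fewer counts in at least 1 HCT116 library, and these differences are loosely fixed. HOXD10, HOXD12 and HOXD13 passed the count filter only through SW480 libraries, and HOXD3 only through HCT116 libraries. They add no support to the HOXD count or median. With a library left out, the HOXD median ranged from 0.82 to 3.04, with 7 to 9 genes above 0, and the HOXA median from -0.59 to -0.40, with 10 to 11 genes below 0.

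The noncoding RNAs of the clusters followed the members in part. Of 24 listed, 23 had a row, and many of these antisense transcripts overlap HOX genes, with strand kept in the counting. Between the parental lines 13 of 16 tested were called higher in SW480 and 1 lower, where 16.1% and 12.9% of all genes were. HAGLROS, HOXC13-AS and HOXC-AS3 passed the count filter only through SW480 libraries, so their calls are descriptions. HOTAIR, a HOXC transcript known for binding polycomb proteins, was at 4.99 and 5.38 RPKM in SW480 parental against 0.117 and 0.0450 (5.98 ± 0.37), and HOXB-AS3 at 18.2 and 26.1 against 0.188 and 0.122 (7.14 ± 0.33). HAGLROS, at the HOXD cluster, had 628 read pairs in SW480 parental and none in HCT116 parental, at least 121-fold higher against a floor of 3 read pairs per library. HOXC-AS1 was the one called lower (-2.42 ± 0.36).

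HOXD-AS2, which starts on the opposite strand between HOXD8 and HOXD4, was called in SW480 CD44s-OE against CD44v6-OE, the comparison that called both genes. It was at 1.37 and 1.20 RPKM in CD44s-OE, 0.116 and 0.201 in CD44v6-OE and 0.622 and 0.347 in the parental libraries (3.02 ± 0.48, adjusted p = 0.00964), the same order of groups as HOXD8. It was lost without SW480 CD44s-OE 1, CD44s-OE 2 or CD44v6-OE 1 (adjusted p up to 0.150). HAGLROS passed the adjusted p alone in the same direction, at 14.99 and 14.7 against 6.36 and 8.35 RPKM (1.02 ± 0.22, adjusted p = 0.0480).

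In HOXA, 2 antisense transcripts changed where their coding neighbours did not pass. HOXA11-AS was called in HCT116 CD44s-OE, at 1.13 and 1.07 RPKM against 0.370 and 0.374 in parental (1.56 ± 0.29, adjusted p = 0.0157; 0.137 without HCT116 parental 2), while HOXA11 itself was at 4.81 and 4.72 against 4.77 and 6.27 RPKM (-0.21, adjusted p = 0.531). HOXA10-AS was lower in SW480 CD44s-OE at a smaller fold, at 22.9 and 24.5 RPKM against 42.5 and 46.4 in parental (-0.93 ± 0.15, adjusted p = 0.00904) and 50.7 and 52.5 in CD44v6-OE (-1.11 ± 0.15, adjusted p = 0.00461), and passed in each fit that left out a library. HOXA10 was at 5.15 and 4.82 RPKM in CD44s-OE, 4.96 and 4.94 in parental (-0.01, adjusted p = 0.988) and 7.07 and 6.42 in CD44v6-OE (-0.43, adjusted p = 0.392). Both CD44v6-OE libraries thus lay above both CD44s-OE ones for HOXA10 as for HOXA10-AS, without passing the test for HOXA10. In the other comparisons within a line, no noncoding RNA of the list was called.

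Among the TALE cofactors that bind DNA with HOX proteins, listed with the PBX-interacting protein PBXIP1, which is not a TALE factor, 0 of 9 tested genes were called within a line. At the adjusted p alone, PBXIP1 and MEIS3 were higher in HCT116 CD44s-OE (0.88 and 0.68, adjusted p = 0.0320 and 0.0606). Between the parental lines MEIS1 was called higher in SW480 (93 read pairs against 1) and PKNOX2 lower, the latter at most at 0.043 RPKM in any library. Each passed the count filter only through the line where it was higher, so both calls are descriptions. PBX2, PBX3 and PBX4 were at 1.28 RPKM or more in the parental libraries of both lines.

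CDX2, the intestinal homeobox factor upstream of HOX genes in the hindgut, was the one member of its list of 12 gut homeobox genes past the adjusted p within a line. Only 4 of the 12 were tested in HCT116 and 7 in SW480. In SW480 it was at 10.1 and 10.3 RPKM in CD44s-OE against 18.7 and 25.8 in parental (-1.15 ± 0.21, adjusted p = 0.0153) and 16.5 and 22.2 in CD44v6-OE (-0.92 ± 0.20, adjusted p = 0.0581). It lost the first without either CD44s-OE library (adjusted p up to 0.203) and the second without any one of the 4 OE libraries (up to 0.631). In HCT116 it ranged from 7.98 to 12.6 RPKM.

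Of 24 genes flanking the clusters, 0 were called within a line. NFE2, beside HOXC, was lower in SW480 CD44s-OE at 3.25 and 2.90 RPKM against 5.54 and 8.26 in parental (-1.19, adjusted p = 0.0235) and 7.59 and 9.28 in CD44v6-OE (-1.45, adjusted p = 0.0123), and SKAP1 and ATP5MC1, beside HOXB, were higher against parental (0.96 and 0.63, adjusted p = 0.0419 and 0.0780). Between the parental lines 5 of 23 tested flanking genes were called higher in SW480, PRAC2, NFE2, CHN1 and SKAP1 among them, and TTLL6 was called lower. Of all genes, 16.1% were called higher and 12.9% lower there. PRAC2 passed the count filter only through SW480 libraries, so its call is a description.

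Of the regulators of HOX chromatin, 0 of 35 polycomb and trithorax genes and 0 of 11 CTCF and cohesin genes were called within a line or between the parental lines. At the adjusted p alone 7 polycomb and trithorax genes passed in HCT116 CD44s-OE against parental, as did 14.2% of all genes. Of the 7, 3 were higher and 4 lower, and the largest was PHC2 at 0.83. In the other 5 comparisons within a line 0 passed. SMC1A, a cohesin subunit, was lower in HCT116 CD44s-OE (-0.60 ± 0.12, adjusted p = 0.0193). Between the parental lines, 9 polycomb and trithorax genes were higher in SW480 and 15 lower at the adjusted p alone, as were 4 and 4 of the CTCF and cohesin genes. Over all genes, 29.0% were called and 60.9% passed the adjusted p there. Of the retinoic acid pathway, 14 of 18 genes were tested in SW480 and 1 was called within that line, ALDH1A2, with 23 read pairs in CD44s-OE against 1 in parental. ALDH1A2 passed the count filter there only through OE libraries, so its call is a description. In HCT116 CD44s-OE, ALDH1A3, which makes retinoic acid, was lower at 9.76 and 12.4 RPKM against 25.4 and 29.8 (-1.31 ± 0.16, adjusted p = 0.00328). Between the parental lines, the retinol receptor STRA6 (22.0 and 33.0 against 0.0420 and 0.0229 RPKM) and the binding protein CRABP1 were called higher in SW480, and CYP26B1, which degrades retinoic acid, was called lower (0.106 and 0.127 against 5.82 and 4.63 RPKM). CRABP1 passed the count filter only through SW480 libraries, so its call is a description.

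**Figure D5:**
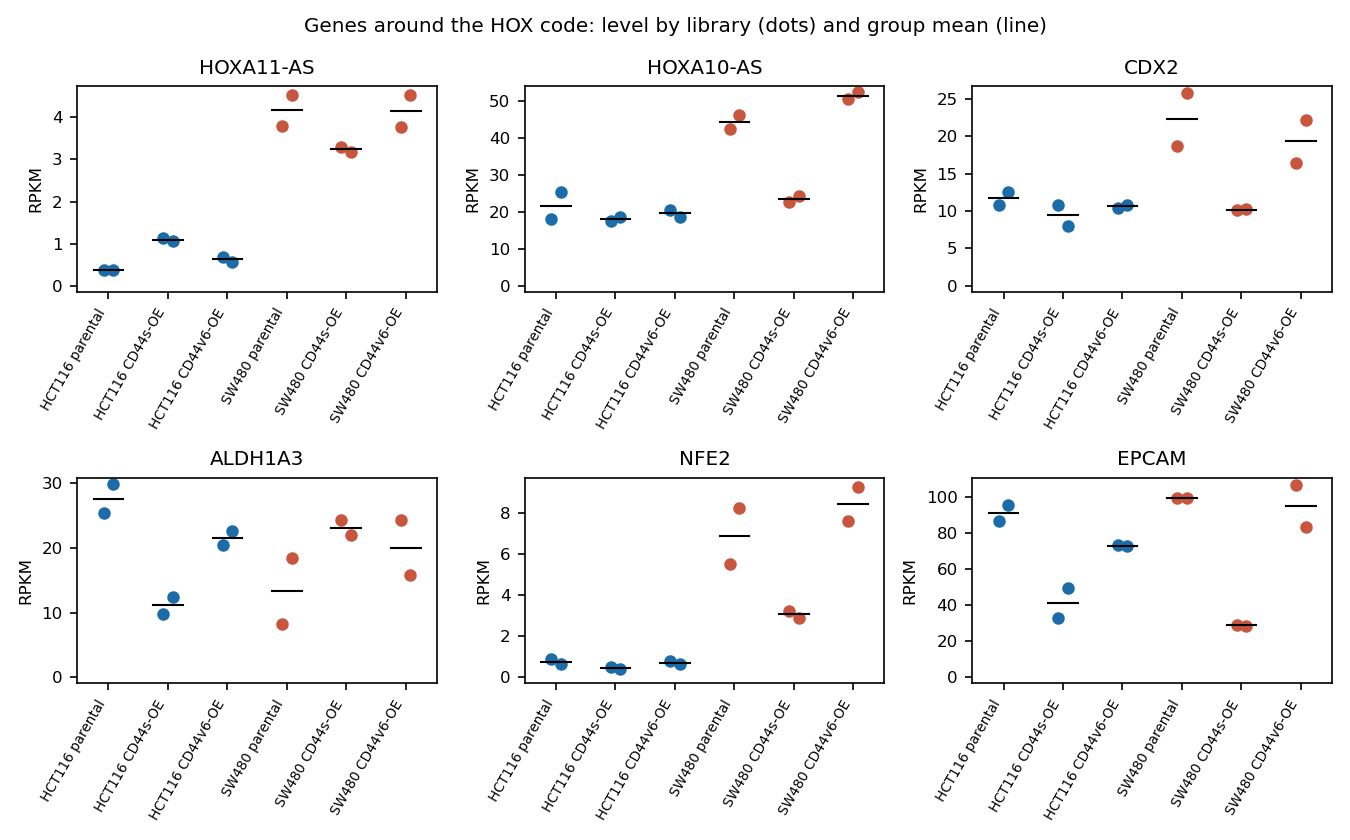
RPKM by library (dots, HCT116 blue and SW480 red) and group mean (line) for HOXA11-AS, HOXA10-AS, CDX2, ALDH1A3, NFE2 and EPCAM. HOXA10-AS, CDX2, NFE2 and EPCAM are low in both SW480 CD44s-OE libraries, EPCAM also in both HCT116 CD44s-OE libraries, HOXA11-AS is high in both HCT116 CD44s-OE libraries, and ALDH1A3 is low in both HCT116 CD44s-OE libraries.

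Markers of colon epithelium and of other cell types were read in the same libraries. KRT8, KRT18, KRT19 and EPCAM were high in all libraries, while CDX1 and CEACAM5, which define differentiated colon epithelium, had at most 0.0355 RPKM. The 12 colon epithelial markers summed to 1932 to 2384 RPKM in SW480 CD44s-OE, against 3946 to 4337 in parental and 3176 to 3460 in CD44v6-OE, and EPCAM was called lower there, at 29.1 and 28.6 RPKM against 99.3 in both parental libraries (-1.80 ± 0.16, adjusted p = 0.000548). Of 8 markers tested there against parental, 1 was called higher (CDH17, with 27 read pairs against 0) and 1 lower, and at the adjusted p alone 1 was higher and 5 were lower, KRT8, KRT18, KRT19 and CDX2 along with EPCAM. Over all genes, 2.03% were called and 4.72% passed the adjusted p in that comparison. CDH17 was at least 4.11-fold higher against a floor of 3 read pairs per library, and was also called in CD44v6-OE, with 14 read pairs against 0. In HCT116 the sums were 1464 to 1672 in CD44s-OE, 1618 to 1935 in parental and 1613 to 1824 in CD44v6-OE, and EPCAM was at 33.0 and 49.7 RPKM in CD44s-OE against 86.9 and 95.7 in parental (-1.14 ± 0.18, adjusted p = 0.00908). Of 8 markers tested there, 0 were called higher and GPA33 was called lower (-2.81, adjusted p = 0.0913), and at the adjusted p alone KRT20 was higher (1.13 ± 0.30, adjusted p = 0.0495). Over all genes, 3.09% were called and 14.2% passed the adjusted p in HCT116 CD44s-OE against parental. The part of these marker values in the HOXD and HOXB differences of the same libraries was not tested. The 8 fibroblast markers summed to 3.99 to 7.01 RPKM in HCT116 CD44s-OE and 3.56 to 3.92 in CD44v6-OE, against 1.54 to 2.16 in parental, and to at most 0.783 in SW480. COL3A1, one of them, was called higher in both HCT116 OE groups, at 1.13 and 2.96 RPKM with CD44s and 0.124 and 0.149 with CD44v6, against 0.0168 and 0.0173 in parental, and PDGFRB was called lower in HCT116 CD44s-OE (adjusted p = 0.0982). LUM was called higher in both SW480 OE groups, with 31 read pairs in CD44s-OE and 28 in CD44v6-OE against 2 in parental. CDH17 and LUM passed the count filter in SW480 only through OE libraries, so their calls are descriptions. COL3A1 was near the floor in HCT116 parental and apparently passed the filter there only through OE libraries, so its calls are descriptions too. The 8 leukocyte markers summed to at most 3.26 RPKM and the 6 endothelial markers to at most 0.230, and PTPRC, which defines leukocytes, was at 0 in 5 of 6 groups. LYZ was called higher in SW480 CD44s-OE against parental (2.11, adjusted p = 0.0780). In bulk RNA, fewer cells with a transcript and less of it per cell cannot be told apart.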

How the data were processed

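Gene counts from 12 libraries (2 in each of 6 groups) were used. The authors deposited raw counts per gene, made with STAR 2.7.9a (hg19) and featureCounts 2.0.3 over GENCODE 35 exons, reverse stranded, with reads that overlap several genes left out. Pairs were apparently not merged in counting (odd counts were under-represented), so 1 fragment may give 2 counts and counting intervals use read pairs. They cover counting error only. The authors also deposited log2-like variance-stabilized values (DESeq2 1.30.1), used here for gene symbols and for limma.

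From the counts, edgeR 4.0.16 (R 4.3.3) was fitted after TMM scaling and filterByExpr, by quasi-likelihood with robust settings, over the 6 libraries of a line for comparisons within it and over all 12 for the parental and line-difference comparisons, with Benjamini-Hochberg adjustment over all tested genes. DESeq2 1.42.0 and limma 3.58.1 were alternatives. The CD44s-OE and CD44v6-OE comparisons of a line share its parental libraries. Standard errors are on the log2 scale. The fit was tested on simulated data: of genes changed by 2 on the log2 scale, 92.9% were recovered for HCT116 CD44s-OE against parental (16998 genes) and 76.0% for the corresponding line difference (19098 genes). The changed genes were drawn only from those above a floor on mean CPM. These rates therefore do not cover genes as low as HOXD4. Every other alternative is given in the closing section. Values in each library are given for members called within a line and for the highest member of each cluster in each line, and up to 4 called genes in each direction from each companion list. Results for a few genes, counted in the totals, are not reported here. Members, lists and tests were chosen with earlier results of these data known.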

Additional observations from a re-analysis of the deposited data

Results flagged for a closer look

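No HOX gene of the 4 clusters passed the edgeR test of a difference between the lines. Of the companion lists, 9 genes that did are given here (adjusted p under 0.1 for the difference between the SW480 and the HCT116 log2 difference). Group sizes of 2 allow no check for single outlying libraries.

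Among the noncoding RNAs of the clusters, HOXA11-AS differed by -1.92 ± 0.32 (SE, adjusted p = 0.00892) for CD44s-OE against parental, with a difference of 1.56 in HCT116, and passed in all 12 fits that left out a library. HOXD-AS2 differed by 3.48 ± 0.61 (adjusted p = 0.0323) for CD44s-OE against CD44v6-OE and passed in 7 of 12, lost without either HCT116 CD44v6-OE, either SW480 CD44s-OE or the first SW480 CD44v6-OE library (adjusted p up to 0.208).

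The other differences are for CD44s-OE against parental. ATP5MC1, beside HOXB, differed by 1.01 ± 0.23 (adjusted p = 0.0344), lost without HCT116 parental 2 or SW480 CD44s-OE 2. In the retinoic acid list, ALDH1A3 differed by 2.11 ± 0.45 (adjusted p = 0.0391) and ALDH1A2 by 5.01 ± 1.26 (adjusted p = 0.0599), the latter at most at 0.0568 RPKM in any library. PHF1 differed by -0.85 ± 0.21 (adjusted p = 0.0527), WDR5 by 0.68 ± 0.19 (adjusted p = 0.0897), MAZ by 0.75 ± 0.20 (adjusted p = 0.0719) and the epithelial marker KRT19 by -0.82 ± 0.22 (adjusted p = 0.0789).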

How the results depend on the processing

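Among the genes named for passing a threshold, 303 values under other settings kept sign and adjusted p, 12 kept the sign and lost the adjusted p, and none reversed. None of those 12 came from the comparison of the parental lines. With a library left out, which leaves 1 library in a group, no sign reversed. There the adjusted p was lost mostly within a line or for line differences, and seldom between the parental lines. The numbers of expressed genes per group stayed within 1.5 times of those given (16 to 30 over all settings). In HCT116, CD44s-OE against parental gave 1 called gene with no count filter, 2 with all 12 libraries in one fit and 3 with no minimum fold, and 0 to 1 when a library was left out. CD44v6-OE against parental gave 1 with only the groups compared and 0 to 1 with a library left out, and CD44s-OE against CD44v6-OE 1 with no minimum fold. In SW480, CD44s-OE against parental gave 1 with no filter and 2 with no minimum fold. CD44s-OE against CD44v6-OE gave 1 with a mean count of at least 50, 0 with limma and 0 to 2 with a library left out, and HOXD8 had a log2 difference of 1.15 with limma, under the fold threshold. The parental lines gave 29 with no minimum fold and 26 at an absolute log2 difference over 1, and 14 to 17 with a library left out. Line differences gave, for CD44s-OE against parental, 3 with no filter, 3 with DESeq2 and 0 to 2 with a library left out. For CD44v6-OE against parental they gave 2, 4 and 0 to 2, and 1 with only the groups compared. For CD44s-OE against CD44v6-OE they gave 2, 2 and 0 to 1, and 1 with only the groups compared. The cause of these shifts was not tested.

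The deviations of same-numbered libraries of different groups had correlations of 0.06 to 0.25 in HCT116 and -0.25 to 0.11 in SW480 over 9386 genes. With groups of 2 libraries, this check cannot settle whether the numbers pair them. With a replicate block, calls were 0 in 5 comparisons within a line, 2 in SW480 CD44s-OE against CD44v6-OE, 16 between the parental lines and 0 for the line differences. HOXB7 and HOXB13 lost their adjusted p in SW480 CD44s-OE with the block and with only the groups compared, which leaves fewer libraries. With only the groups compared, HOXB5 in HCT116 CD44s-OE against CD44v6-OE (adjusted p = 0.128) and the line difference of ATP5MC1 (0.105) lost it too, and HOXA7 in HCT116 CD44s-OE lost it there, with no filter and with limma (up to 0.216).

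Depth limits the HOXD genes most: a floor of 3 read pairs is 6 counts in a library.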
